A study of Mus musculus with 95 samples.

Results

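Gng11, Tceal8, Itm2a, Malat1 and Otos are 5 of the 53465 gene entries counted in sorted mouse blood stem and progenitor cells after transplantation. The genes were chosen by their own levels, as ones that rose between 3 and 16 weeks after transplant in HSC or in HPC-1, and the course over weeks in HSC and HPC-1 is given here as a description, without a test. The cells were sorted from bone marrow and the RNA was read in bulk by SMART-Seq v4, which copies full-length cDNA from few cells. Transplanted animals had received 900 cGy of irradiation and 8000 Lin-Sca1+Kit+ donor cells, and HSC, HPC-1 and HPC-2 were taken at 8 times, 3 to 6 weeks later in steps of 1 week and then 8, 10, 13 and 16 weeks later, with 3 libraries per population and week. Untreated animals at steady state served as the comparison, with n = 8 for HSC, n = 8 for HPC-1 and n = 7 for HPC-2. The labels give strain B6.SJL and an age of 8 to 12 weeks for every library, transplanted or not, name no engineered allele, and do not say whether that is the age of donor or recipient or whether the replicates of a group are different animals. All p-values therefore measure the spread between these libraries, which may be technical.

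HSC self-renew and supply all blood lineages. HPC-1 and HPC-2 are downstream multipotent progenitors that are commonly told apart from HSC by the surface proteins CD48 and CD150, which the genes Cd48 and Slamf1 encode. The listed genes share no pathway. Gng11 encodes a gamma subunit of heterotrimeric G proteins, which pairs with a beta subunit and is released with it when a receptor activates the alpha subunit. Tceal8 belongs to the X-linked transcription elongation factor A-like (TCEAL) and BEX genes. Itm2a encodes a type II membrane protein with a BRICHOS domain and was described in developing cartilage and in thymocytes. Malat1 is an abundant long noncoding RNA of nuclear speckles. Otos encodes otospiralin, a small secreted protein known from fibrocytes of the inner ear.

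On GRCm38, Gng11 (ENSMUSG00000032766) spans chr6:4003904-4008445 on the plus strand. Tceal8 (ENSMUSG00000051579) spans chrX:136168984-136172342 and Itm2a (ENSMUSG00000031239) spans chrX:107397099-107403376, both on the minus strand. Malat1 (ENSMUSG00000092341) spans chr19:5795690-5802672 and Otos (ENSMUSG00000044055) spans chr1:92644218-92648841, again on the minus strand. All are annotated as protein coding except Malat1, a long intergenic noncoding RNA. Malat1 is also the one that overlaps other annotated genes, Gm27694 on its own strand and Gm37376 on the opposite strand, and both had a mean of 0 CPM.

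Promoters (250 bases before to 50 bases after the transcript start) were available from RefSeq on GRCm38.p6 for 4 of the 5 genes. Those of 3 genes are printed 5′ to 3′ on the strand of the gene, because these genes had the clearest differences from steady state described below. Capitals mark the letters of the motifs searched.
Tceal8, chrX:136172202-136172501, minus strand: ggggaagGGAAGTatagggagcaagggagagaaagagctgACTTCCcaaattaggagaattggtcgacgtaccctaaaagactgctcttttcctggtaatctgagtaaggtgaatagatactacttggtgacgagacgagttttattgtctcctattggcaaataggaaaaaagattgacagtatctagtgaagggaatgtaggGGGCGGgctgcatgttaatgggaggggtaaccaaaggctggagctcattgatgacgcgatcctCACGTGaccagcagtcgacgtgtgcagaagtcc
Itm2a, chrX:107403311-107403610, minus strand: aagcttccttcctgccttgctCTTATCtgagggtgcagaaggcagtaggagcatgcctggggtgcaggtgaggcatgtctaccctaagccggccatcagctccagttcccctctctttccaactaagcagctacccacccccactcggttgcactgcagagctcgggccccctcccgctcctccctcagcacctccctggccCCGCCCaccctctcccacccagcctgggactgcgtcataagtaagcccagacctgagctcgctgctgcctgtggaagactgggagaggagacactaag
Malat1, chr19:5802623-5802922, minus strand: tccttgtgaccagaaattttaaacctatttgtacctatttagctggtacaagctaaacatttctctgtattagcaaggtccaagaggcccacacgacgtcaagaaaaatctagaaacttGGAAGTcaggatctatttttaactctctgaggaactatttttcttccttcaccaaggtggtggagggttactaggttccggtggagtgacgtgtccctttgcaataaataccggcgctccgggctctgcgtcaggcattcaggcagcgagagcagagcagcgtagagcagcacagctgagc

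The motifs were GATAAG (known from GATA-binding factors), TGTGGT (known from RUNX factors), GGAAGT (known from ETS factors), CACGTG (the E-box), GGGCGG (the GC box) and TATAAA (a core promoter box), searched on both strands. None overlapped another here. Tceal8 held GGAAGT at -243 from the start, its reverse complement ACTTCC at -210, GGGCGG at -46 and CACGTG at 17. Itm2a held CTTATC, the reverse complement of GATAAG, at -229 and CCGCCC at -48, and Malat1 held GGAAGT at -131. Otos, not printed, held TGTGGT at 4 and ACTTCC at 21. The GGAAGT letters, found in 3 of the 4 promoters, were in 23.7% of 32544 RefSeq promoters of the same length. GGGCGG was in 35.9% of them, TGTGGT in 16.7%, TATAAA in 13.6%, GATAAG in 7.32% and CACGTG in 7.17%. These matches are letters in a window and no site of binding was measured.

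The 95 libraries held 3551908 to 8492759 counts (median 5628592) and 3827 to 15697 detected genes. Steady-state Cd48 averaged 17.7 CPM (counts per 1000000 counts of a library) in HSC, 1118 CPM in HPC-1 and 565 CPM in HPC-2, and Slamf1 averaged 68.4, 0.63 and 26.7 CPM in the same order of populations. The labels give 1 sort gate, that of HSC (CD48- CD150+), for all 3 populations, and the Cd48 levels of HPC-1 and HPC-2 go against it. Fewer than 10000 genes were detected in 12 libraries. There were also 12 libraries, 2 of them among those with fewer than 10000 genes, that formed 6 pairs of nearly equal counts, with a chi-square per degree of freedom of 1.24 to 4.50, against 15.1 for the next of 4465 pairs. One of these pairs joins HSC steady-state replicate 1 to HPC-2 at 13 weeks replicate 1, and HPC-2 steady-state replicates 5 and 7 pair with libraries labelled HPC-1.

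Gng11 was lowest in the first weeks after transplant. In HSC its level was 178, 160 and 105 CPM at 3 weeks and 218, 277 and 262 CPM at 4 weeks. At 5 weeks it was 477, 425 and 544 CPM, and at 16 weeks 560, 610 and 614 CPM. The steady-state HSC libraries ran from 88.1 to 803 CPM with a median of 466. All 6 libraries of 3 and 4 weeks lay below that median, and all 3 of 16 weeks above it. The value of 88.1 CPM belongs to replicate 1, of the pair with HPC-2. Without it the steady-state libraries began at 416 CPM, and every library of 3 and 4 weeks lay below them.

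As a share of the steady-state mean of 463 ± 195 CPM (SD, n = 8), Gng11 in HSC stood at 31.9% at 3 weeks (147 ± 38.2 CPM, SD, n = 3) and 54.6% at 4 weeks (252 ± 30.8). It stood at 104% at 5 weeks, 76.0% at 6 weeks, 104% at 8 weeks, 80.3% at 10 weeks, 108% at 13 weeks and 129% at 16 weeks. Without steady-state replicate 1, the only library of these groups with a near-identical partner, the shares were 28.6% at 3 weeks, 48.9% at 4 weeks and 93.4% at 5 weeks, and 16 weeks, at 115%, was the only week above 100%. The week at which Gng11 came back to the steady-state mean therefore rests on that library. In the order of the means, 3 and 4 weeks were the only neighbours whose libraries did not overlap. One library of 13 weeks, replicate 2, reached 878 CPM and was among those with fewer than 10000 genes, and without it the share of 13 weeks was 67.7%.

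In HPC-1 Gng11 was low for longer than 4 weeks. Its level was 17.8, 12.1 and 18.4 CPM at 3 weeks, against steady-state libraries from 28.1 to 115 CPM with a median of 70.6. The 3 libraries of 3 weeks all lay below the lowest steady-state one. Means stayed at 54.1% of steady state or less to 6 weeks, with 39.8% at 4 weeks and 37.9% at 6 weeks. At 8 weeks the mean was 109%, at 13 weeks 164% (119, 99.9 and 113 CPM) and at 16 weeks 138% (87.6, 126 and 65.7 CPM). Without near-identical libraries it was 62.0% at 5 weeks and 120% at 8 weeks. Libraries of all neighbouring groups in the order of means overlapped.

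**Figure D1:**
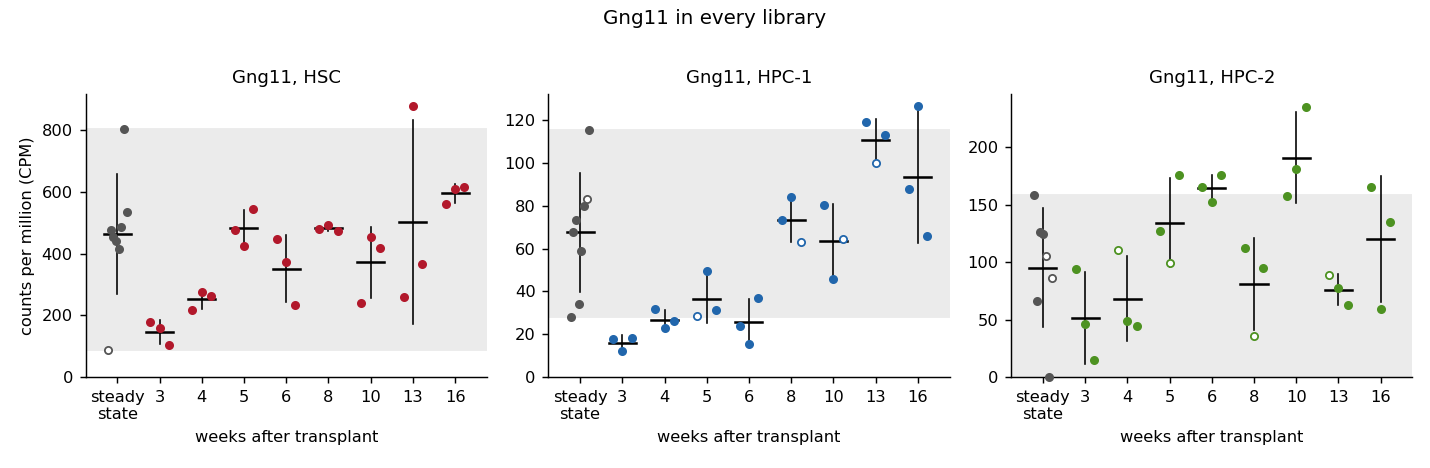
Gng11 in CPM (vertical axis) in each library at steady state (grey) and at each week after transplant (coloured), in HSC, HPC-1 and HPC-2. Bars are means with SD, the grey band is the steady-state range, and open points are libraries with a near-identical partner. The HSC panel reaches 878 CPM and the HPC-1 panel 126 CPM, and in both the points of 3 weeks lie low.

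Tceal8 showed the course most clearly in HPC-1. At 3 weeks it had 40.8, 37.3 and 45.5 CPM, and at 4 weeks 69.1, 58.2 and 51.6 CPM. Steady-state HPC-1 libraries ran from 101 to 187 CPM with a median of 154. The libraries of 3 weeks lay below those of 4 weeks, and all 6 lay below every steady-state library. The means were 28.4% and 41.1% of steady state in those weeks, 50.8% at 5 weeks (30.1% without replicate 1) and 59.6% at 6 weeks. They were 91.1% at 8 weeks (101% without near-identical libraries), 73.3% at 10 weeks, 70.2% at 13 weeks and 112% at 16 weeks, where the libraries had 212, 119 and 155 CPM. At 16 weeks 1 library lay above the steady-state range and the others within it.

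In HSC the fall of Tceal8 was small beside its spread. The libraries of 3 weeks had 277, 196 and 84.7 CPM, and those of 16 weeks 273, 419 and 227 CPM. Steady-state libraries ran from 128 to 681 CPM with a median of 263. The groups overlapped, with 1 library of 3 weeks below the steady-state range. The 3-week mean was 61.6% of steady state and the 4-week mean 87.8%, and later means ran from 91.3% to 122%.

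Itm2a was low in both populations at 3 and 4 weeks. In HSC it had 81.6, 104 and 39.6 CPM at 3 weeks and 19.2, 122 and 55.7 CPM at 4 weeks. Steady-state HSC ran from 112 to 442 CPM with a median of 234. The 3 libraries of 3 weeks lay below that range and 1 of the libraries of 4 weeks reached into it. The means were 30.5% and 26.7% of steady state, then between 57.8% and 66.6% from 5 to 10 weeks. At 13 weeks the mean was 124% and at 16 weeks 131%, with 226, 445 and 295 CPM. Single libraries weighed heavily here. Without replicate 2 of its week the share was 15.2% at 4 weeks and 32.7% at 8 weeks.

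In HPC-1 Itm2a had 25.0, 25.3 and 83.5 CPM at 3 weeks and 58.0, 66.3 and 53.2 CPM at 4 weeks, against steady-state libraries from 74.1 to 324 CPM with a median of 142. All libraries of 4 weeks and 2 of the 3 of 3 weeks lay below that range. The means were 28.0% and 37.2% of steady state at 3 and 4 weeks, 61.8% to 84.5% from 5 to 10 weeks, 100.4% at 13 weeks and 106% at 16 weeks. The steady-state maximum of 324 CPM came from replicate 7, which pairs with an HPC-2 library. Without near-identical libraries the share was 123% at 8 weeks, 119% at 10 weeks, 113% at 13 weeks and 124% at 16 weeks, so the steady-state mean was then passed at 8 weeks. Of the libraries of 3 weeks, replicate 3 was the highest, and without it their share was 15.8%, while without replicate 1 that of 10 weeks was 55.3%.

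**Figure D2:**
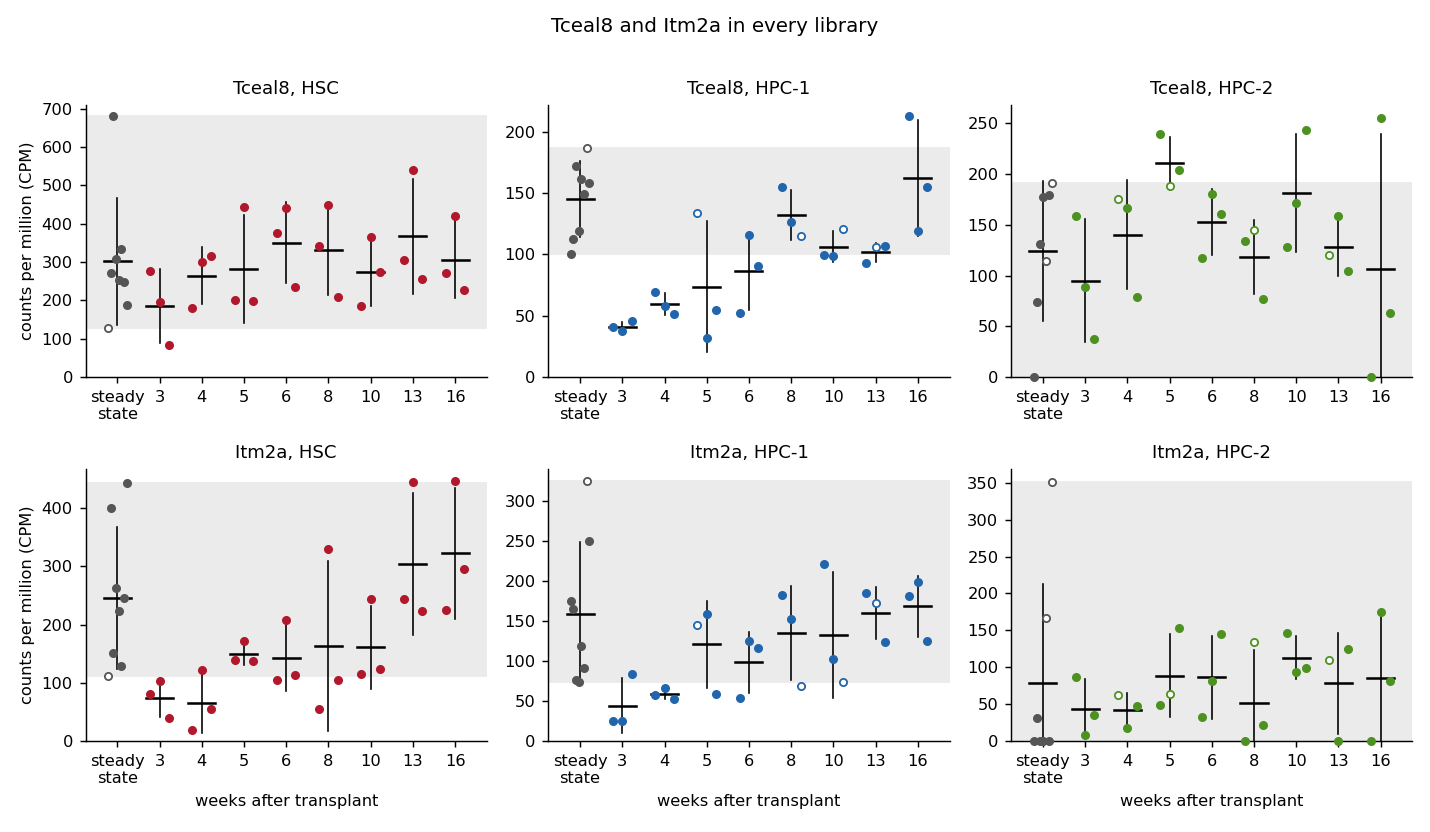
Tceal8 (top) and Itm2a (bottom) in CPM in each library at steady state (grey) and by week after transplant (coloured), for each population. Bars are means with SD, the grey band is the steady-state range, and open points have a near-identical partner. All Tceal8 points of 3 and 4 weeks in HPC-1 lie below the band that starts at 101 CPM.

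Malat1 was low at 3 and 4 weeks in HSC, while its libraries in HPC-1 were mixed. Whether its course differed between the populations was not tested, and the difference in the average over weeks, given below, was not called. In HSC it had 281, 244 and 134 CPM at 3 weeks and 260, 218 and 412 CPM at 4 weeks, and all of these lay below the steady-state libraries, which ran from 454 to 1589 CPM with a median of 677. The means were 25.6% and 34.6% of steady state. They lay between 59.6% and 83.9% from 5 to 13 weeks and reached 105% at 16 weeks (99.7% without near-identical libraries), with 762, 1182 and 765 CPM. In HPC-1 the libraries of 3 weeks had 215, 663 and 230 CPM, against 364 to 776 CPM at steady state (median 525). Of these, 2 lay below the steady-state libraries and 1, replicate 2, within them. Without it the share of 3 weeks was 41.3%, against 68.6% with it. From 4 weeks on the HPC-1 means ran from 81.3% to 126% of steady state with overlapping libraries, where 120.7% at 6 weeks became 69.7% without replicate 2.

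Otos had low counts in some libraries and a wide spread. In HSC it had 17.4, 24.1 and 1.77 CPM at 3 weeks and 146, 167 and 73.8 CPM at 16 weeks. Steady-state HSC ran from 0 to 232 CPM with a median of 45.1. No week lay outside this range, since replicate 1 had no count, which allows up to 0.452 CPM, and replicate 3 had 0.21 CPM. These replicates, and replicate 8 with the highest level, were among the libraries with fewer than 10000 detected genes. Without such libraries the steady-state HSC range was 39.7 to 91.3 CPM (n = 5). All 3 libraries of 3 weeks and all 3 of 4 weeks then lay below it. The 2 libraries left at 16 weeks lay above it. So did 2 of the 3 libraries of 5 weeks and 2 of the 3 of 8 weeks. In HPC-1 Otos had 23.2, 27.0 and 17.7 CPM at 3 weeks and 130, 167 and 148 CPM at 16 weeks, against 17.9 to 165 CPM at steady state (median 60.7). The libraries of 16 weeks lay above those of 13 weeks (48.0, 102 and 81.1 CPM). The 16-week mean was 197% of steady state in HSC and 211% in HPC-1, and the 3-week mean 22.0% in HSC and 32.2% in HPC-1. Between them the HSC means did not rise steadily, with 42.6% at 4 weeks, 131% at 5 weeks and 87.9% at 6 weeks. They were 160% at 8 weeks, 79.9% at 10 weeks and 56.8% at 13 weeks. The HPC-1 means lay between 53.6% and 83.3% from 4 to 6 weeks and between 103% and 110% from 8 to 13 weeks. The steady-state mean of HSC rests on replicate 8, at 232 CPM. Without it the share was 309% at 16 weeks and 34.5% at 3 weeks, and without replicate 2 of 3 weeks it was 14.6% there.

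**Figure D3:**
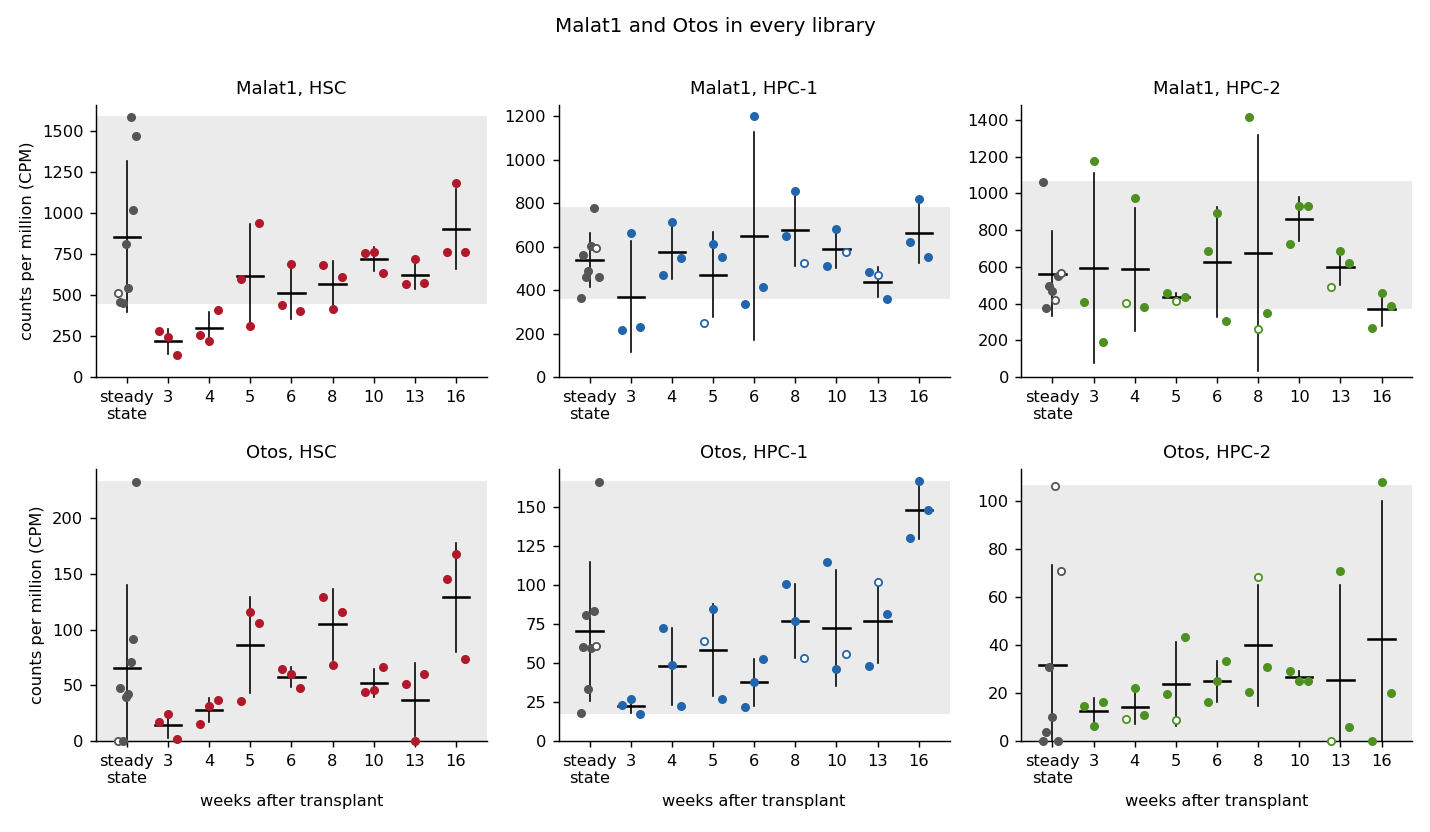
Malat1 (top) and Otos (bottom) in CPM in each library at steady state (grey) and by week after transplant (coloured), for each population. Bars are means with SD, the grey band is the steady-state range, and open points have a near-identical partner. Malat1 in HSC at 3 and 4 weeks lies below the band that starts at 454 CPM, while Otos stays inside its band in HSC. The lowest and highest points of that Otos band are libraries with fewer than 10000 detected genes.

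Counted over the genes, all 3 libraries of 3 weeks lay below the steady-state range for 2 of 5 in HSC (Itm2a and Malat1) and for 2 of 5 in HPC-1 (Gng11 and Tceal8). Among all genes tested 1.06% did so in HSC and 2.61% in HPC-1, and nothing is read from this, since the genes were chosen by these weeks. At 4 weeks the same held for Malat1 in HSC (0.303% of all genes) and for Tceal8 and Itm2a in HPC-1 (0.488% of all genes). Without near-identical libraries the count in HSC was 3 of 5 (Gng11, Itm2a and Malat1) at 3 weeks and again at 4 weeks, beside 3.21% and 1.22% of all genes in the same order of weeks. In HPC-1 it stayed at 2 of 5 in each, beside 3% and 0.627% of all genes. At 16 weeks none of the 5 had all its libraries above the steady-state range, as 0.584% of all genes did in HSC, 0.948% in HPC-1 and 0.677% in HPC-2, and none had them all below it.

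**Figure D4:**
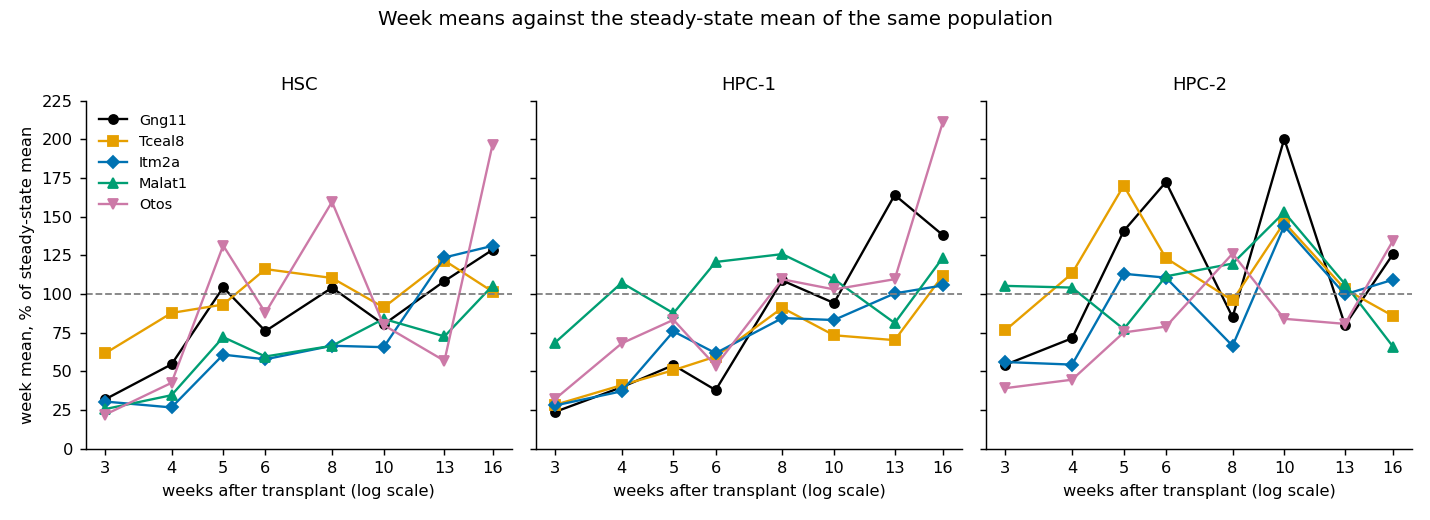
Mean level at each week as a percentage of the steady-state mean of the same population (vertical axis) against weeks after transplant (log scale), for each gene in HSC, HPC-1 and HPC-2. The dashed line marks 100%. In HSC all 5 genes lie below the line at 3 and 4 weeks, between 22.0% and 87.8%.

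The mean over the 8 weeks was set against steady state in each population with edgeR's quasi-likelihood test. This contrast is not the rise by which the genes were listed, but it uses the same transplanted libraries, those of the first weeks included. The p-values of the 5 genes in HSC and HPC-1, and in the difference between these populations, are therefore a description. They are no independent support for a change. In HPC-1 1 of the 5 genes, Tceal8, was called at an adjusted p under 0.05, where 1.39% of 13717 genes were called and 1.35% were called lower. Tceal8 averaged 95.4 ± 44.6 CPM after transplant (SD, n = 24) and 145 ± 30.8 CPM at steady state (SD, n = 8), a log2 change of -0.82 (SE 0.20, adjusted p = 0.0319), with 21 of 24 transplanted libraries below the steady-state median. The call was lost when any of steady-state replicates 3, 5, 6, 7 or 8 was left out (adjusted p up to 0.0688), and when the transplanted libraries were taken as 1 group (-0.69, adjusted p = 0.584). Gng11 (log2 change -0.67, SE 0.24, adjusted p = 0.15) and Itm2a (-0.68, SE 0.28, adjusted p = 0.234) had changes of nearly that size and were not called, and Otos had -0.36 (SE 0.31) and Malat1 -0.07 (SE 0.21). The median of all genes in this comparison was -0.18.

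In HSC none of the 5 was called by edgeR, where 5.31% of 14209 genes were, while 2 of the 5 had an unadjusted p under 0.05 and DESeq2 called 1. Malat1 averaged 557 ± 253 CPM after transplant (SD, n = 24) and 857 ± 459 CPM at steady state (SD, n = 8), a log2 change of -0.68 (SE 0.22, adjusted p = 0.0611). It was called with DESeq2 (-0.80, adjusted p = 0.0188) and with RLE scaling (-0.80, adjusted p = 0.0212), and without near-identical libraries (adjusted p = 0.0352). Itm2a had -0.66 (SE 0.32, adjusted p = 0.276), Otos -0.30 (SE 0.74), Gng11 -0.29 (SE 0.24) and Tceal8 -0.00 (SE 0.26). The median of all genes was -0.39, so that only Malat1 and Itm2a were further down than the middle of the genes. The test of the difference between HSC and HPC-1 in this average called none of the 5 and 0.00609% of 16410 genes. The difference was 0.84 for Tceal8 (SE 0.61) and -0.58 for Malat1 (SE 0.36), and none of the 5 had an unadjusted p under 0.05 or a call by DESeq2 there.

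HPC-2 was not used by the rule, and neither the average nor the slope over weeks was called for any of the 5 genes there by edgeR or DESeq2, and 0 had an unadjusted p under 0.05. The average called 1.15% of 13436 genes and the slope 0.305%. Slopes per doubling of weeks were 0.55 for Otos (SE 0.64), 0.29 for Itm2a (SE 0.73), 0.19 for Gng11 (SE 0.40), -0.11 for Malat1 (SE 0.20) and -0.15 for Tceal8 (SE 0.44), with an adjusted p of 0.998 for each. The signs for Tceal8 and Malat1 turned under RLE scaling. For Itm2a and Otos the SE in HPC-2 was as large as their slopes in HPC-1 or nearly so.

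The HPC-2 libraries of 1 group often lay far apart. Gng11 had 94.5, 46.3 and 14.8 CPM at 3 weeks and 158, 181 and 235 CPM at 10 weeks, and 166, 59.2 and 135 CPM at 16 weeks. Steady-state HPC-2 ran from 0 to 159 CPM with a median of 106. The highest mean was that of 10 weeks, not of 16. Itm2a at steady state had no count in 4 of 7 libraries, 32.2 CPM in 1, and 167 and 351 CPM in replicates 5 and 7, which pair with HPC-1 libraries. With them the 3-week mean was 56.1% of the steady-state mean, and without near-identical libraries it was 6.85 times that mean, so no direction can be given for Itm2a in HPC-2.

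Between the populations at steady state, Gng11 stood apart. It averaged 463 ± 195 CPM in HSC (SD, n = 8), against 67.5 ± 27.9 CPM in HPC-1 (SD, n = 8) and 95.5 ± 51.6 CPM in HPC-2 (SD, n = 7). Apart from replicate 1 the HSC libraries lay above every progenitor library. It was 6.09-fold higher in HSC than in HPC-1 (log2 2.61, SE 0.46, adjusted p = 0.000364) and 5.20-fold higher than in HPC-2 (2.38, SE 0.48, adjusted p = 0.00563). Gng11 was 1 of 5 genes called in each comparison, where 1.61% of 16410 genes were called against HPC-1 (0.53% higher) and 5.9% against HPC-2 (4.62% higher). The call held in every setting tried and without any single library, with adjusted p up to 0.00173 against HPC-1 and up to 0.0137 against HPC-2.

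The other 4 were not called. Against HPC-1, Tceal8 had 0.89 (SE 0.53), Malat1 0.50 (SE 0.31), Itm2a 0.48 (SE 0.88) and Otos -0.27 (SE 0.90) on the log2 scale. Against HPC-2, Itm2a had 1.58 (SE 0.94, adjusted p = 0.31), Tceal8 1.34 (SE 0.56), Otos 1.04 (SE 0.95) and Malat1 0.73 (SE 0.32). Without near-identical libraries Itm2a (5.47, adjusted p = 0.00297) and Otos (3.18, adjusted p = 0.0398) were called higher in HSC than in HPC-2. Without libraries under 10000 genes the values were 0.39 for Itm2a and -0.11 for Otos, and neither was called. The 4 HPC-2 steady-state libraries with no Itm2a count all had fewer than 10000 detected genes, so the Itm2a value depends on which libraries are kept. Since RNA was measured in bulk, a level that differs between sorted groups cannot tell fewer expressing cells from less RNA per cell.

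The numbers in the sample descriptions run in sets of 12, and each set holds the libraries of 1 week and 1 steady-state library of each population (none of HPC-2 in 1 set). The labels do not call a set a batch. Steady-state libraries have no week, yet for several of the genes those in later sets had higher levels. Gng11 in HPC-1 averaged 84.2 CPM in the 4 steady-state libraries of the sets that hold 8 to 16 weeks (59.0 to 115) and 50.8 CPM in the 4 of the earlier sets (28.1 to 73.4). Malat1 in HSC averaged 1155 CPM in the later sets (544 to 1589) and 559 CPM in the earlier ones (454 to 810). Otos in HSC averaged 109 CPM in the later sets (42.7 to 232) and 21.8 CPM in the earlier ones (0 to 47.4). Tceal8 in HSC averaged 256 CPM in the later sets and 347 CPM in the earlier ones, of which replicate 3 had 681 CPM and the others 128, 272 and 308 CPM, so no direction can be given.

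Placed at the week of their own set, steady-state libraries had slopes that are given here beside those of the transplanted libraries, without a test. For Malat1 in HSC the slope per doubling of weeks was 0.69 (SE 0.14) in transplanted libraries and 0.80 (SE 0.23) in steady-state ones. For Gng11 in HSC it was 0.60 (SE 0.17) in transplanted libraries and 0.65 (SE 0.30) in steady-state ones, and for Otos in HPC-1 0.85 (SE 0.19) in transplanted libraries and 0.82 (SE 0.33) in steady-state ones. For these the steady-state libraries moved with the set about as much as the transplanted ones moved with the week. The steady-state slope of Gng11 in HSC leans on replicate 1, the library of the earliest set, at 88.1 CPM. The other 7 steady-state HSC libraries ran from 416 to 803 CPM, and no slope was fitted without replicate 1. For Gng11 in HPC-1 the transplanted slope was 1.14 (SE 0.16) and the steady-state one 0.60 (SE 0.26), for Tceal8 in HPC-1 0.71 (SE 0.14) and 0.33 (SE 0.24), and for Itm2a in HSC 0.90 (SE 0.20) and 0.31 (SE 0.33). The median slope of all genes was between -0.04 and 0.01 for transplanted libraries of HSC and HPC-1, and between -0.01 and 0.12 for steady-state ones. Whether the set contributes to the rise over weeks was not tested, and week and set cannot be told apart within the transplanted libraries.

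**Figure D5:**
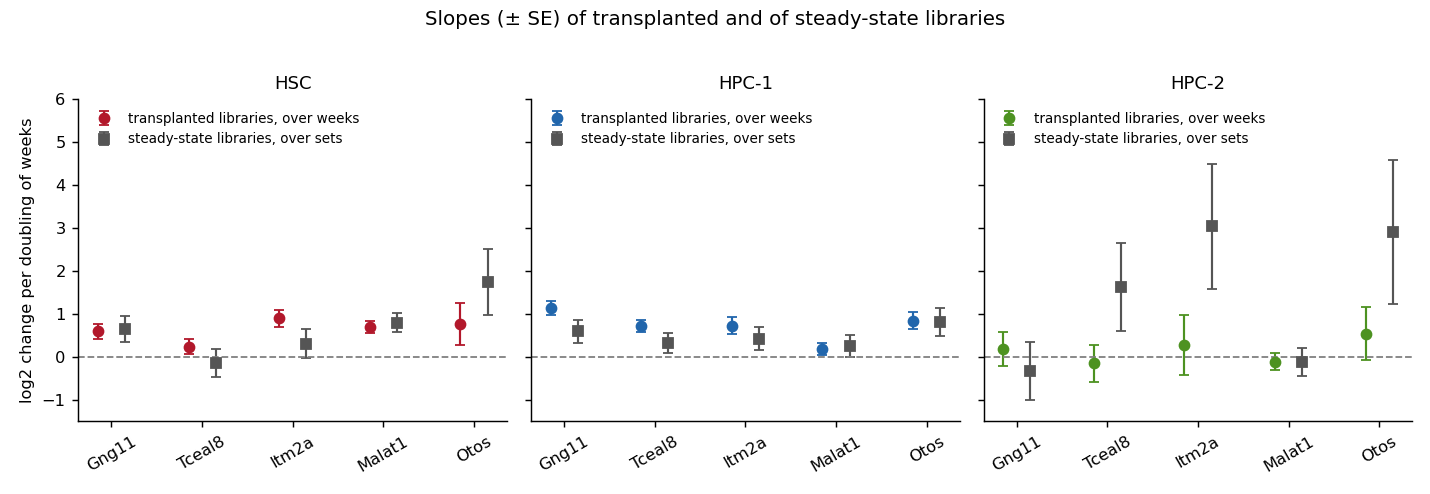
Log2 change per doubling of weeks (vertical axis, bars are SE) of each gene, for transplanted libraries over their weeks (coloured circles) and for steady-state libraries placed at the week of their description set (grey squares). The bars of circle and square are apart for Itm2a in HSC and for Gng11 and Tceal8 in HPC-1, and overlap for the other genes of these populations. The grey squares of HPC-2 have the widest bars.

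Set against the steady-state library of the same set, the first weeks kept their direction for some genes only. In HPC-1 the mean of 3 weeks over that library was 0.409 for Tceal8, 0.255 for Itm2a and 0.574 for Gng11, and that of 4 weeks 0.53, 0.358 and 0.397 in the same order of genes. Over all 8 sets the week was lower than its steady-state library in 7 for Tceal8, in 6 for Gng11 and in 4 for Itm2a. By the means of the weeks, Malat1 and Otos in HPC-1 did not keep their direction. For Malat1 the week was lower in 0 of the 2 sets of 3 and 4 weeks and in 2 of all 8. Its means of 3 and 4 weeks, 369 and 577 CPM, were close to those steady-state libraries, at 364 and 563 CPM. At 3 weeks this rests on replicate 2, at 663 CPM, while the others, at 215 and 230 CPM, lay below the steady-state library. For Otos it was lower in 1 of these 2 sets and in 4 of all 8, with a median ratio of 1.01. In HSC the 3-week ratio was 0.426 for Malat1 and 0.67 for Itm2a, but 1.67 for Gng11 and 1.45 for Tceal8, where the steady-state library is replicate 1. At 4 weeks these ratios were 0.648 for Malat1, 0.164 for Itm2a, 0.53 for Gng11 and 0.975 for Tceal8. Over all 8 sets the HSC week was lower in 6 for Malat1, in 6 for Itm2a, in 4 for Gng11 and in 3 for Tceal8.

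The relatives of these genes were read from lists of gene families. Of 12 G protein gamma genes 8 were tested, and in the HPC-1 average none was called, while all 8 had a negative log2 change with a median of -0.64, against -0.18 for all genes. Of these, 4 had an unadjusted p under 0.05 and DESeq2 called 0. In HSC none of the 8 was called by edgeR or DESeq2, 0 had an unadjusted p under 0.05, and the median was -0.11 against -0.39 for all genes. At steady state Gng11 was the gamma gene that edgeR called higher in HSC than in HPC-1 and HPC-2, while DESeq2 also called Gng7 against HPC-2, and 7 of the 8 had a value below 0 against HPC-1. Of the beta subunits, which pair with the gamma subunits, 4 of 5 were tested and none was called in any of the comparisons by edgeR or DESeq2. Gnb5 had an unadjusted p under 0.05 in 2 of them, the HPC-2 slope and the steady-state comparison of HSC with HPC-1.

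Of 12 TCEAL and BEX genes 8 were tested in HPC-1, all with a negative value and a median of -1.12, and Tceal8 was the only one called by edgeR, while DESeq2 called Bex1 too. Bex1 had -2.56 (SE 0.70, adjusted p = 0.0587), Bex2 -2.95 (SE 0.83, adjusted p = 0.0666) and Bex4 -3.03 (SE 0.87, adjusted p = 0.0712). These genes had larger changes than Tceal8 and larger errors. In HSC none of 10 was called by edgeR or DESeq2 (median -0.56), and 1, Bex2, had an unadjusted p under 0.05. Between HSC and HPC-1 at steady state Bex6 was called lower in HSC (-5.55, SE 1.48, adjusted p = 0.0334), as 1.08% of all genes were, a call lost under RLE scaling (adjusted p = 0.0524), without near-identical libraries (0.0733) and without any of 7 of the 95 libraries. All 3 genes of the ITM2 family were tested, Itm2a, Itm2b and Itm2c, and none was called in any of the comparisons by edgeR or DESeq2. Itm2a alone had an unadjusted p under 0.05, in the averages of HSC and HPC-1. Itm2b had a value of 0.06 (SE 0.17) in HSC and -0.06 (SE 0.10) in HPC-1.

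Of 12 long noncoding RNAs 9 were tested in HSC, and 1 was called: Meg3, the maternally expressed RNA of an imprinted locus, fell (-6.66, SE 1.07, adjusted p = 0.0159), a call that DESeq2 did not make (adjusted p = 0.402). Malat1 came next by p. Neat1, which builds nuclear paraspeckles and neighbours Malat1, had -0.59 (SE 0.54). In HPC-1 none of 8 was called by edgeR or DESeq2, and 1 had an unadjusted p under 0.05. Gas5 was the one called higher in HSC than in HPC-2 at steady state (1.05, SE 0.33, adjusted p = 0.046), a call lost without any of 13 of the 95 libraries. Without libraries under 10000 genes its value was 0.29 (adjusted p = 0.945).

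Of 18 genes of HSC identity, all tested, 3 were called lower after transplant in HSC, where 5.22% of all genes were called lower, among them Fgd5 (-4.27, SE 1.04) and Robo4 (-4.43, SE 1.11). At steady state Pdzk1ip1 (3.30, SE 0.50), Gata2 (3.12, SE 0.49) and Mllt3 (4.44, SE 1.11) were called higher in HSC than in HPC-1, beside Gng11. In HPC-1 Fgd5 was called lower after transplant and in HPC-2 Procr was, where 1.09% of all genes were called lower. The calls of Fgd5 and Robo4 in HSC were each lost in 3 of 8 settings (adjusted p up to 0.918). Among these was the fit with the transplanted libraries as 1 group (adjusted p = 0.397 and 0.362). The Robo4 call was also lost without 1 of 32 libraries (adjusted p = 0.0583). The call of Fgd5 in HPC-1 was lost in 5 of 8 settings, DESeq2 among them, and without any of 6 of 32 libraries, and that of Procr without any of 26 of 31, and the Procr value turned to 2.65 without near-identical libraries.

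Over the 27 group means of log2(CPM + 1), the genes most like each of the 5 were sought among 8355 genes of at least 10 CPM. These correlations share libraries and depth and are a description. For Gng11 they were Pdzk1ip1 (Pearson r 0.957), Ppic (0.895) and Gstm2 (0.877). For Tceal8 they were Hmgn3 (0.901), Prdx4 (0.89) and Selenom (0.877), and for Itm2a Clk1 (0.875), Insl6 (0.872) and Tm2d1 (0.871). Otos was most like 9030619P08Rik (0.873), Tmsb15b1 (0.868) and Glipr1 (0.866). Malat1 was most like the mitochondrial RNAs mt-Rnr2 (0.784), mt-Rnr1 (0.766) and mt-Nd2 (0.73). The share of mitochondrial counts in HSC was 0.62%, 0.71% and 0.29% in the libraries of 3 weeks and 2.84%, 2.77% and 2.17% in those of 16 weeks. At steady state it ran from 0.79% in replicate 1 to 3.18% in replicate 8. Whether this share has a part in the course of Malat1 was not tested. Among the 5, Gng11 and Tceal8 were most alike (0.821), then Itm2a and Otos (0.641), and Gng11 and Otos least (0.233).

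Markers of other cells were read beside these results. The 5 endothelial markers summed to a median of 48.6 CPM in HSC of 3 and 4 weeks (13.8 to 90.2), 81.6 CPM from 5 to 16 weeks (2.37 to 195) and 137 CPM at steady state (80.3 to 250). In HSC the median of Gng11 was 198 CPM at 3 and 4 weeks and 473 CPM at 5 to 8 weeks. It was 455 CPM at 10 to 16 weeks and 466 CPM at steady state. The median of Itm2a was 68.6, 138, 243 and 234 CPM in the same order of groups. Most of the endothelial sum was Emcn, which HSC also express, while Cdh5 was at 0 in every HSC library. The 7 HSC and sort genes summed to a median of 585 CPM in HSC of 3 and 4 weeks (435 to 832), 881 CPM from 5 to 16 weeks (541 to 1177) and 1080 CPM at steady state (256 to 1648). The 5 megakaryocyte markers, in turn, had medians of 1334 CPM at 3 and 4 weeks, 1457 CPM from 5 to 16 weeks and 540 CPM at steady state. The 4 T cell markers, of cells known for Itm2a, had a median of 0 in all 3 groups of HSC, with 32.9 CPM as the highest. The part of these cells in the results was not tested.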

How the data were processed

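RNA of sorted bone marrow cells was measured in 95 libraries, and the authors deposited raw counts per gene. The tools named in the submitters' processing notes are Trimmomatic 0.36, HISAT2 2.0.5, Picard and featureCounts, and the genome build is GRCm38 (mm10). For the strand setting and the annotation used, nothing was given in these sources. Without a known strand setting, reads of Malat1 and of a gene on the opposite strand cannot be told apart.

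Libraries were grouped by title, also 2 that read 10k (placed at 10 weeks) and 1 HPC-2 library of 3 weeks that another label calls untreated. Levels are counts per 1000000 counts of the library (CPM). Genes passing edgeR's filterByExpr were scaled by TMM and tested with edgeR's quasi-likelihood F test (edgeR 4.0.16, R 4.3.3), with Benjamini-Hochberg adjustment over all genes tested and a threshold of 0.05; SE was taken from the F statistic. Averages and the HPC-2 slope were fitted within a population, and differences between populations in a fit of all libraries with 27 group means. DESeq2 1.42.0 and the other alternatives are in the closing section. In the fit of all libraries, each left-out library kept the filter and the trended dispersion of the full fit. The tests were tried on simulated data. Figures were drawn with Python 3.11.15 and matplotlib 3.10.9.

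The 5 genes, the gene lists and the tests were chosen with earlier results of these data known. The genes named are the 5, up to 4 called genes with the smallest p per list, and the 3 genes most like each of the 5, except that 1 called gene of the HSC list is not reported here. Family genes with larger p, marker genes and Neat1 were named after their values were seen.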

Additional observations from a re-analysis of the deposited data

Results flagged for a closer look

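Dixon's ratio sets the gap of an extreme library against the whole range. By it the highest library stood apart in 4 of 15 groups of steady-state libraries (5 genes in 3 populations). Its limits flag about 1 in 20 groups by chance where values are normal and groups independent. The groups here are in CPM and share libraries, so their count cannot be set against that rate. Tceal8 reached 681 CPM in HSC steady-state replicate 3, with the next library at 336 CPM, and this library had fewer than 10000 detected genes. Malat1 reached 1064 CPM in HPC-2 steady-state replicate 1, with the next at 566 CPM, also in a library with fewer than 10000 genes. Otos reached 232 CPM in HSC steady-state replicate 8 and 165 CPM in HPC-1 steady-state replicate 8, both in the last description set, which also holds the week of 16. The HSC one had fewer than 10000 genes and the HPC-1 one did not. With HSC replicate 8 left out, the Otos average in HSC was 0.37 on the log2 scale, against -0.30 with it, and neither was called. With HSC replicate 3 left out, the Tceal8 average in HSC was 0.30, against -0.00 with it.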

How the results depend on the processing

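The calls of Gng11 in HSC against HPC-1 and HPC-2 were made under every setting and left-out library tried, and the call of Tceal8 in HPC-1 was lost as given above and with the replicate block (adjusted p = 0.884) or the block for description sets (0.137). Counts of called genes moved more. The HSC average called 755, against 2733 with no filter on low counts, 0 with the replicate block, 18 with transplanted libraries as 1 group and 16 with a block for description sets (442 to 1312 over left-out libraries). The HPC-1 average called 190, against 2087 with no filter, 114 with DESeq2, 122 without near-identical libraries, 0 with the replicate block and 16 with 1 group without or with the set block (93 to 432 over left-out libraries). The HPC-2 average called 155, against 352 with RLE scaling, 1324 with no filter, 1136 with DESeq2, 8 without libraries under 10000 genes, and 0 without near-identical libraries, with the replicate block, and with 1 group with or without the set block (0 to 304 over left-out libraries). The HPC-2 slope called 41, against 1323 with no filter, 198 without libraries under 10000 genes, 25 without near-identical libraries and 76 with the replicate block (40 to 369). HSC against HPC-1 called 264, against 1260 with no filter and 408 with DESeq2 (167 to 310). HSC against HPC-2 called 968, against 2478 with no filter, 1670 with DESeq2, 33 without libraries under 10000 genes, 2559 without near-identical libraries and 183 with the replicate block (203 to 1453). The difference between HSC and HPC-1 called 1, against 0 with RLE scaling, 6 with no filter, 598 with DESeq2 and 4 without libraries under 10000 genes (0 to 1). The cause was not tested. Higher genes made up 18.4% of the DESeq2 calls and 2.63% of the edgeR calls in the HPC-1 average, 25.1% and 5.81% in the HPC-2 average, and 51.2% and 33% in HSC against HPC-1. RLE scaling shifted the median of all genes by -0.157 in the HSC average, -0.185 in the HPC-2 average, 0.185 in the HPC-2 slope, 0.244 in HSC against HPC-1, -0.142 in HSC against HPC-2 and -0.403 in the difference between HSC and HPC-1.

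Replicate numbers did not clearly pair libraries. Correlations of deviations from the group mean ran from -0.236 to 0.306 over 32 pairs of HSC and HPC-1 libraries with the same number. Of these, 10 were over 0.1, and 11 libraries correlated best with their own number. At steady state all were positive, from 0.055 to 0.306. Transplanted groups hold replicates 1 to 3 only, so averages with a replicate block rest on steady-state replicates 1 to 3. The values that turned their sign (log2) follow, none of them called. With that block the averages were 0.21 for Gng11, 0.20 for Malat1 and 2.14 for Otos in HSC, 0.095 for Malat1 in HPC-1, and 3.46 for Itm2a, 1.35 for Otos and 2.33 for Procr in HPC-2. Tceal8 in HSC had 0.0096 with no filter, 0.094 without libraries under 10000 genes, 0.029 with 1 group and 0.12 with the set block (-0.12 to 0.30 over left-out libraries). Otos in HSC had 0.013 without libraries under 10000 genes, 0.017 with 1 group and 0.28 with the set block (-0.50 to 0.37). Without near-identical libraries Malat1 in HPC-1 had 0.014 (-0.16 to 0.027 over left-out libraries), and in HPC-2 Itm2a had 3.13, Otos 1.58 and Procr 2.65. With the set block Itm2a had 1.82 and Otos 0.71 in HPC-2. Over left-out libraries the HPC-2 averages were -0.024 to 0.31 for Gng11, -0.50 to 1.11 for Itm2a, -0.76 to 0.34 for Otos and -6.99 to 2.67 for Procr, which was called lower at -6.26 (adjusted p = 0.0497) and turned without HPC-2 steady-state replicate 5. With RLE scaling and with DESeq2, the HPC-2 averages were -0.042 for Tceal8 and -0.11 for Malat1, and the slopes 0.15 and 0.14. Without libraries under 10000 genes the Malat1 slope was 0.088. Over left-out libraries it was -0.22 to 0.024, and that of Tceal8 -0.31 to 0.0037. Without libraries under 10000 genes Otos in HSC against HPC-2 was -0.11, and over left-out libraries Otos in HSC against HPC-1 was -0.97 to 0.049. The difference between HSC and HPC-1 for Itm2a was -0.28 with RLE scaling and with DESeq2, -0.012 without libraries under 10000 genes, -0.37 without near-identical libraries and -0.20 with the replicate block (-0.16 to 0.23). For Otos it was -0.23 with RLE scaling and with DESeq2 and -0.10 without near-identical libraries (-0.23 to 0.78). TMM-scaled levels, week shares without doubtful or single libraries and slopes of steady-state libraries were alternatives chosen after seeing the data. Counts per library limit the low values of Otos and Itm2a, where 0 counts still allow a low level, and floors cover counting error only.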
